A study of Rattus norvegicus with 24 samples.

Results

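The genes described here are 10 regulators of mitochondrial and fatty acid metabolism, namely the coactivators Ppargc1a and Ppargc1b, the estrogen-related receptors Esrra, Esrrb and Esrrg, the peroxisome proliferator-activated receptors Ppara, Ppard and Pparg, and the mitochondrial regulators Tfam and Nrf1. They were taken by gene name from the deposited expression table, which holds 21067 genes, and all 10 had a row. The RNA came from the quadriceps muscle of 24 Sprague-Dawley rats, 6 in each of 4 groups, with 1 library per rat. The rats were 6 weeks old on arrival, of an outbred stock with equal numbers of males and females by the study's methods, and the labels give no sex for a library. The summed level of Y-linked transcripts was above 10 FPKM in 3 libraries each of the control, treadmill and catgut 1 groups and in 2 of catgut group 2, so that the libraries of catgut group 2 do not show equal numbers. The control group, which the labels call blank, did no training. The treadmill group trained for 7 weeks in sessions of 20 min at speeds of up to 35 m/min and then ran to exhaustion. Catgut group 1 and catgut group 2 did the same training and run after absorbable thread had been left at acupoints, at Bai Hui, Han Gou, Qian Shen, Qiang Feng, Xie Qi and Yang Wa in catgut group 1 and at these points plus Fei Shu in catgut group 2. None of the study's 4 groups was trained without the run to exhaustion, or had thread without training. For the thread, rats were anaesthetised with ether and pierced with a needle, and no group with this handling but without thread is described. Thread and handling therefore cannot be told apart in the catgut groups. Nothing in the labels gives a batch or a sampling date. The p-values measure a group difference against the spread between these rats, and a difference in batch or time of sampling between groups cannot be told apart from it.

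PGC-1 coactivators bind no DNA themselves. They attach to nuclear receptors, chiefly the estrogen-related receptors and the peroxisome proliferator-activated receptors, and raise transcription of genes for oxidative phosphorylation and for the burning of fatty acids. Peroxisome proliferator-activated receptors respond to fatty acids and bind DNA together with a retinoid X receptor, whereas estrogen-related receptors need no ligand. Nrf1, the nuclear respiratory factor, acts on nuclear genes for the respiratory chain and on Tfam, whose protein packs and transcribes mitochondrial DNA. In skeletal muscle Ppargc1a is known to rise after exercise and to be more abundant in slow, oxidative fibres than in fast, glycolytic ones. In bulk muscle RNA a lower share of one fibre type and less RNA per fibre cannot be told apart.

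The labels name the tissue as quadriceps, although their extraction text speaks of adipose tissue. The listed levels of muscle genes were high in every library, with 22811 to 35310 FPKM for Acta1 (skeletal actin) and 13319 to 23660 FPKM for Ckm (muscle creatine kinase), while Adipoq (adiponectin) had 0.045 to 21.4 FPKM. FPKM scales the fragments of a gene by its transcript length and by the mapped total of the library. The total count was 45945938 to 78278080 per library. The summed level of 14 liver transcripts was 11.8 to 58.7 FPKM in 22 libraries, 290 FPKM in control replicate 2 and 436 FPKM in treadmill replicate 3. Genes of slow fibres (10 genes, such as Myh7 and Myl2) had a summed level of 24.1 to 4713 FPKM between libraries, with a group median of 241 FPKM in the control group, 989 in the treadmill group, 1675 in catgut group 1 and 1513 in catgut group 2.

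No regulator passed the test between any pair of groups. Of the 9 regulators that were abundant enough to be tested, 0 had an adjusted p under 0.05 in edgeR's quasi-likelihood test in any of the 6 comparisons, and DESeq2 and limma also called 0. An unadjusted p under 0.05 was found in 3 of the 54 pairs of gene and comparison, for Ppargc1a in catgut group 2 against the treadmill group and for Ppargc1a and Ppara in catgut group 2 against the control group. In an F test over the 4 groups together edgeR again called 0 of the 9, with 1 (Ppargc1a) at an unadjusted p under 0.05. The fitted log2 fold changes lay between -0.35 and 0.52, and in 53 of the 54 pairs the 95% interval lay within 1 log2 unit of 0. These intervals reached 0.12 to 0.70 log2 units to either side of the fitted value, depending on the gene.

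Upstream sequences are shown for 3 regulators, Ppargc1a and Ppara, which had the lowest unadjusted p-values, and Tfam, which varied least between libraries. Each run is the 250 bases before the start of the gene in RefSeq on the build GRCr8, 5′ to 3′ on the plus strand, at chr14:63634058-63634307 for Ppargc1a, chr7:118712357-118712606 for Ppara and chr20:17355123-17355372 for Tfam. Capitals mark the motif found.
Ppargc1a: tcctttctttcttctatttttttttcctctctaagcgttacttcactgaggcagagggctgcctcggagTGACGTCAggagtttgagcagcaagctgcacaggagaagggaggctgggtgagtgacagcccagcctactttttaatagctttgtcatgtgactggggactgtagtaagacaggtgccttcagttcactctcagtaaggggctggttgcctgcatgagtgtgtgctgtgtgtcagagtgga
Ppara: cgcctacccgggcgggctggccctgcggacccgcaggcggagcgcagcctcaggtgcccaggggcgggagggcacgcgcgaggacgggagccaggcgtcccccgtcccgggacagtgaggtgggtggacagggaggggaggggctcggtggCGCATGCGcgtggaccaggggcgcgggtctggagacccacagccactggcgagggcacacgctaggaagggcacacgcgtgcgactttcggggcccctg
Tfam: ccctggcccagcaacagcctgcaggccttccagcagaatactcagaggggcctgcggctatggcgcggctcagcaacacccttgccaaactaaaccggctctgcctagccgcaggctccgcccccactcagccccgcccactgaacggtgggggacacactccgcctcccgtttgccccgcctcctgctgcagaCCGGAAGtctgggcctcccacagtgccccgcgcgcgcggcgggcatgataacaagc
The capitals in Ppargc1a are the cyclic AMP response element TGACGTCA, which binds CREB and ATF factors, those in Ppara the core CGCATGCG bound by nuclear respiratory factor 1, and those in Tfam the core CCGGAAG bound by GABP. On either strand, these letters stood in 1.59%, 1.47% and 7.27% of the 33469 upstream windows of that length. Also searched were the estrogen-related receptor element TNAAGGTCA, the E-box CACGTG and the D-box TTATGTAA, which 1.04%, 5.59% and 0.828% of all windows held and none of the 13 windows of the regulators. The reference table had windows for 9 of the 10 regulators, Ppard being the other. Of the 13 windows, 3 held any of the 6 motifs searched, and these are the 3 shown. The share of all windows with any of the 6 was not counted, so 3 of 13 has no background to be read against. A link between these motifs and the levels was not tested. A match of letters is a description and not a tested binding site.

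By level per transcript length, the regulators fell into 3 tiers. Esrra and Tfam stood far above the rest, with means over the 24 libraries of 49.9 ± 7.42 FPKM and 41.5 ± 3.10 FPKM (SD, n = 24), above 92.3% and 91.1% of the genes tested. Esrra was above Tfam in 20 of 24 libraries. A middle tier of 7 genes followed, in the order Ppard (3.68 FPKM), Nrf1 (3.14), Ppargc1a (2.39), Pparg (1.82), Ppara (1.66), Ppargc1b (1.299) and Esrrg (1.15). In this tier the ranges of neighbours overlapped, and Pparg was above Ppara in only 11 of 24 libraries. Esrrb came last at 0.0884 FPKM, below Esrrg in all 24 libraries. Among the estrogen-related receptors Esrra was thus the highest in every library, and the peroxisome proliferator-activated receptors reached at most 5.59 FPKM.

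**Figure D1:**
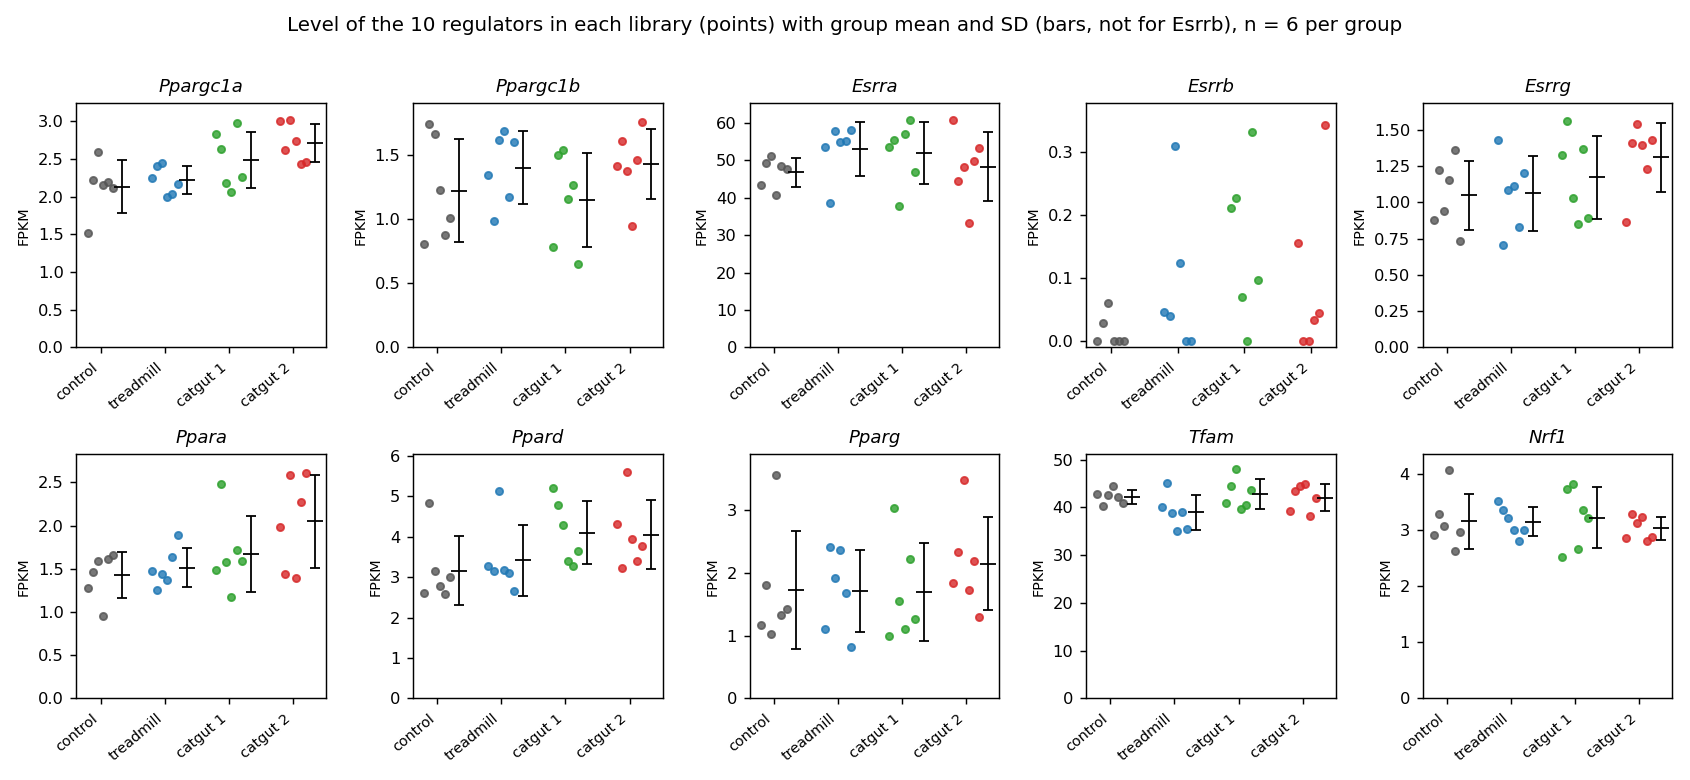
Level (FPKM, vertical axes from 0 or just below it) of each of the 10 regulators in the 24 libraries, 6 points per group, with the group mean and SD as a bar beside them except for Esrrb. Ppargc1a is the gene with the least overlap between catgut group 2 (2.44 to 3.01 FPKM) and the treadmill group (2.00 to 2.45 FPKM), and Esrrb is at 0 in 9 libraries.

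Ppargc1a (ENSRNOG00000004473, chromosome 14, 63095720 to 63187009 as the table lists it, build not given in the sources used here) encodes the coactivator best known from exercise. The control group had a lowest level of 1.52 FPKM, a median of 2.17 and a highest of 2.60. The treadmill group had 2.00, 2.20 and 2.45 FPKM, and catgut group 1 had 2.06, 2.45 and 2.97. In catgut group 2 these levels were 2.44, 2.68 and 3.01 FPKM. Of the 6 libraries of catgut group 2, 5 were above every treadmill library, and the lowest lay just below the highest treadmill library, so the groups overlapped. The mean was 2.71 ± 0.255 FPKM in catgut group 2 and 2.22 ± 0.185 in the treadmill group (SD, n = 6 each), with a log2 fold change of 0.26 (SE 0.109, 95% interval 0.02 to 0.51). edgeR's unadjusted p was 0.0314 and the adjusted p 0.402, and the exact permutation test of log2(FPKM + 1), two-sided, gave p = 0.00433, where 0.00216 is the smallest it can give. Against the control group (2.14 ± 0.347 FPKM) the log2 fold change was 0.35 (SE 0.13, edgeR adjusted p = 0.205), with 4 of 6 libraries above every control library and an exact permutation p of 0.00649. Over the 10 genes and 6 comparisons 60 such permutation p-values were computed, of which 4 were under 0.05, and they are not adjusted for that number.

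The order of the Ppargc1a means was control, treadmill, catgut 1 and catgut 2, but neighbours in that order did not differ beyond their spread. The log2 fold change was 0.09 from control to treadmill (95% interval -0.19 to 0.36), 0.14 from treadmill to catgut group 1 (-0.13 to 0.41) and 0.12 from catgut group 1 to catgut group 2 (-0.17 to 0.41). The slow fibre sum moved in the same order of groups except for the last step. With the slow fibre sum as a covariate, the log2 fold change of Ppargc1a was 0.19 (unadjusted p = 0.0962 in edgeR) against the treadmill group and 0.27 (unadjusted p = 0.147) against the control group. With the Y-linked level as a covariate instead, these values were 0.27 (unadjusted p = 0.0311 in edgeR) and 0.36 (unadjusted p = 0.0237). With 1 library left out in turn, its unadjusted p against the treadmill group was 0.0215 to 0.0801, the highest being without catgut 2 replicate 1. Whether fibre type had a part in the difference was not tested beyond this covariate.

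Ppargc1b, the second coactivator of the family, is known for driving mitochondrial content together with estrogen-related receptors. Its means were 1.22 ± 0.400 FPKM in the control group, 1.40 ± 0.281 in the treadmill group, 1.15 ± 0.365 in catgut group 1 and 1.43 ± 0.274 in catgut group 2 (SD, n = 6 each). All 4 ranges overlapped, from 0.652 to 1.76 FPKM over all libraries. Relative to the treadmill group its fitted difference in catgut group 1 was -0.35 (SE 0.233, 95% interval -0.87 to 0.17, edgeR adjusted p = 0.881), the lowest of the 54 fitted values, while Ppargc1a had 0.14 in that comparison. Over the 24 libraries the log2 levels of the coactivators were weakly related to each other, with Pearson's r = 0.29 and Spearman's rho = 0.31.

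Esrra (ENSRNOG00000021139, chromosome 1, 222168730 to 222178725), the receptor through which Ppargc1a is known to act on respiratory genes, had group means of 46.7 ± 3.92 (control), 53.0 ± 7.31 (treadmill), 51.8 ± 8.28 (catgut 1) and 48.3 ± 9.23 FPKM (catgut 2; SD, n = 6 each). In the treadmill group 5 of 6 libraries were above every control library, and the sixth, treadmill replicate 2 at 38.5 FPKM, was below them all. The log2 fold change was 0.22 (95% interval -0.11 to 0.55, edgeR adjusted p = 0.658), and 0.33 without that library (adjusted p = 0.204 in edgeR). Treadmill replicate 2 also had the lowest slow fibre sum of its group, 29.9 FPKM, and the highest sum of 12 macrophage markers of all 24 libraries, 220 FPKM. Over the 24 libraries Esrra had Pearson's r = 0.59 with the slow fibre sum and r = -0.51 with the macrophage sum. Catgut 1 replicate 6 had a still lower slow fibre sum, 24.1 FPKM, with Esrra at 46.8 FPKM or more. The part of either in the level of Esrra was not tested. Catgut group 2 was the most spread, from 33.1 to 60.7 FPKM, and its difference from the treadmill group was -0.16 (95% interval -0.60 to 0.27). With the slow fibre sum as a covariate this difference was larger, -0.39, while that of the treadmill group from the control group was 0.11. Over all alternative fits of catgut group 2 against the treadmill group, the lowest unadjusted p of Esrra was 0.0148 and the lowest adjusted p 0.214.

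Esrrg, which is known for oxidative fibres and heart, had 1.047 ± 0.235, 1.06 ± 0.260, 1.17 ± 0.288 and 1.31 ± 0.239 FPKM in the same order. In catgut group 2 the lowest library was at 0.866 FPKM and the median at 1.40, against 0.731 and 1.046 in the control group, and 4 of 6 libraries were above every control library. The difference from the control group was 0.32 on the log2 scale (95% interval -0.02 to 0.65, edgeR adjusted p = 0.314), and 0.24 with the slow fibre sum as a covariate.

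Esrrb, the rarest of the receptors, had an average under the limit of 0.1 FPKM and was not tested across genes. Its count was 0 in 9 libraries and at most 30. The commonest count above 0 in the table was 4, so that 12 counts, or 3 fragments if each stands for 4 counts, were taken as the limit of detection. This limit covers counting error only, and some Esrrb counts, such as 3, 7 and 13, were not multiples of 4. Esrrb exceeded this limit in 6 libraries, 3 of catgut group 1, 2 of catgut group 2 and 1 of the treadmill group, and in 0 of the control group. These 6 libraries were the 6 with the highest slow fibre sum, 2384 FPKM or more, and the other 18 had 2104 FPKM or less. This match depends on the limit chosen. Below it, treadmill replicate 4 had 11 counts, and catgut 1 replicate 6 had 9 at the lowest slow fibre sum of all, 24.1 FPKM. Over all 24 libraries, most of them near 0, log2(FPKM + 1) of Esrrb had Pearson's r = 0.55 and rho = 0.58 with the slow fibre sum and r = -0.75 with the fast fibre sum. The exact permutation p for catgut group 1 against the control group was 0.0173, with all 6 control libraries at or under the limit of detection and slow fibre sums of at most 1941 FPKM there. A fold is not given for so few counts, and the part of fibre type was not tested.

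**Figure D2:**
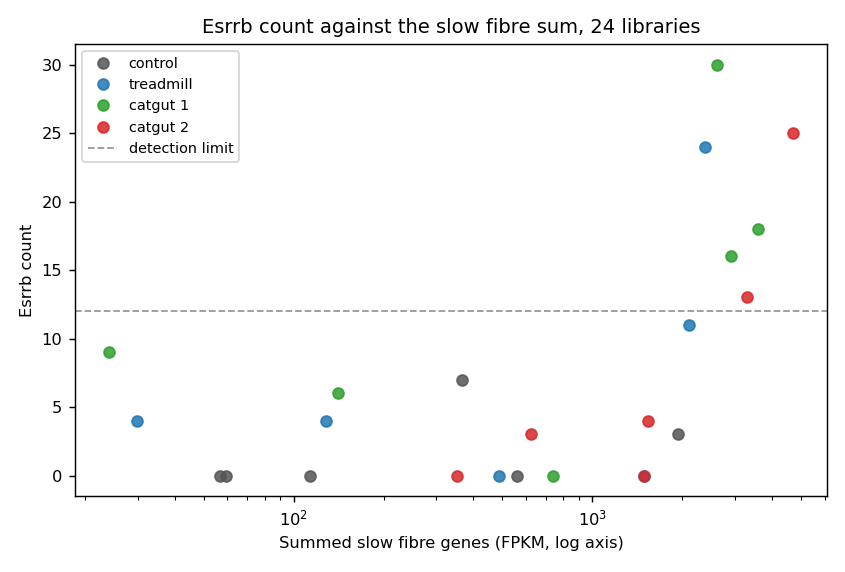
Count of Esrrb (vertical axis) against the summed level of 10 slow fibre genes (FPKM, logarithmic horizontal axis) in the 24 libraries, coloured by group. The dashed line is the limit of detection of 12 counts, and the 6 points above it are those farthest to the right.

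Ppara (ENSRNOG00000021463, chromosome 7, 126619196 to 126681752), the fatty acid receptor that is known to act on genes of fatty acid oxidation, had the largest fitted difference among the regulators. Its lowest, median and highest levels were 0.953, 1.52 and 1.66 FPKM in the control group and 1.25, 1.46 and 1.89 in the treadmill group. They were 1.17, 1.58 and 2.48 FPKM in catgut group 1 and 1.40, 2.13 and 2.61 in catgut group 2. In catgut group 2, 4 libraries lay above every control and every treadmill library, while the other 2 (replicates 2 and 4, at 1.43 and 1.40 FPKM) lay among them. The log2 fold change was 0.52 against the control group (SE 0.228, 95% interval 0.01 to 1.03, edgeR adjusted p = 0.275, exact permutation p = 0.0411) and 0.40 against the treadmill group (SE 0.222, 95% interval -0.09 to 0.90, edgeR adjusted p = 0.561, exact permutation p = 0.0563). With the slow fibre sum as a covariate these values were 0.19 and 0.16. The 4 high libraries had slow fibre sums of 1488 to 4713 FPKM, and replicates 2 and 4 had 351 and 623 FPKM.

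Ppard, the most abundant of the peroxisome proliferator-activated receptors here and known for fatty acid use in muscle, was lowest in the control group. Its lowest, median and highest levels were 2.58, 2.90 and 4.83 FPKM in the control group and 2.65, 3.17 and 5.13 in the treadmill group. They were 3.28, 3.97 and 5.20 in catgut group 1 and 3.23, 3.87 and 5.59 in catgut group 2. The top control value belonged to replicate 2 and the top treadmill value to replicate 3, which were the libraries with the liver transcripts and also those with the highest slow fibre sums of their groups. Leaving these libraries out was chosen after seeing the data. It removes the top Ppard value of each comparison group, so a larger difference had to follow, and the values are given as description only. Without these libraries, the log2 fold change of catgut group 2 rose from 0.35 to 0.52 against the control group (edgeR unadjusted p = 0.00445, adjusted p = 0.127) and from 0.21 to 0.38 against the treadmill group (unadjusted p = 0.0218, adjusted p = 0.354). For catgut group 1 it went from 0.37 to 0.55 against the control group (adjusted p = 0.283 in edgeR) and from 0.24 to 0.40 against the treadmill group (adjusted p = 0.570). With the slow fibre sum as a covariate and all libraries, the differences of catgut group 2 were 0.01 against the control group and 0.06 against the treadmill group, and those of catgut group 1 were 0.28 and 0.22.

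Pparg, the receptor that defines fat cells, varied most within groups among the 9 regulators tested, with a coefficient of variation of 34.7% to 54.6%. Its mean was 1.73 ± 0.943 FPKM in the control group, 1.72 ± 0.655 in the treadmill group, 1.70 ± 0.787 in catgut group 1 and 2.15 ± 0.746 in catgut group 2 (SD, n = 6 each). Catgut group 2 against the treadmill group gave 0.30 (95% interval -0.29 to 0.88, edgeR adjusted p = 0.775). Its log2 level was related to the sum of 15 adipocyte markers (r = 0.73, rho = 0.70) and to that of 7 endothelial markers (r = 0.82, rho = 0.87) over the 24 libraries, and to the same degree after group means were removed (r = 0.72 and 0.80). The highest level of all, 3.57 FPKM in control replicate 4, came with the highest adipocyte sum (676 FPKM) and endothelial sum (135 FPKM) of that group. Most of the adipocyte sum was Fabp4 (309 to 667 FPKM), which endothelial cells also express, while Acvr1c was at 0 in 21 libraries and Adrb3 in 13. The part of these cell types in the level of Pparg was not tested.

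Tfam (ENSRNOG00000000613, chromosome 20, 18594037 to 18606151) was the steadiest regulator, with a coefficient of variation of 7.46% over the 24 libraries. It had 42.2 ± 1.48 FPKM in the control group, 39.0 ± 3.67 in the treadmill group, 42.9 ± 3.19 in catgut group 1 and 42.1 ± 2.76 in catgut group 2 (SD, n = 6 each). In the treadmill group 5 of 6 libraries were below every control library and the sixth, replicate 2, was above them all. Treadmill relative to control, the log2 fold change was -0.09 (95% interval -0.21 to 0.04, edgeR adjusted p = 0.649, exact permutation p = 0.0801), and catgut group 1 differed from the treadmill group by 0.11 (95% interval -0.03 to 0.25, edgeR adjusted p = 0.829, exact permutation p = 0.0693). Nrf1 had 3.15 ± 0.496, 3.15 ± 0.263, 3.22 ± 0.538 and 3.03 ± 0.208 FPKM in the same order of groups, with ranges that overlapped throughout. Its 6 fitted differences lay between -0.09 and 0.04.

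Read against all genes, these counts were small on both sides. Across all 14772 genes tested, edgeR gave an adjusted p under 0.05 for 0.0542% in treadmill against control, 0.0474% in catgut 1 against treadmill and 0.237% in catgut 2 against treadmill. The shares were 0.00677% for catgut group 2 against catgut group 1, 0.0203% and 0.508% for catgut groups 1 and 2 against the control group, and 0.379% over the 4 groups together. With so few genes called, 0 of 9 was near the background in each case. An unadjusted p under 0.05 was found for 9.12%, 6.93%, 10.7%, 3.26%, 9.84%, 16.4% and 13% of all genes in the same order, against 0, 0, 1, 0, 0, 2 and 1 of the 9 regulators. A looser criterion after the study's, which asks for an unadjusted p under 0.05 and group means that differ by a ratio above 1.5 or below 0.667, was met by 2.85%, 3.12% and 3.76% of genes in the first 3 comparisons and by 0 regulators. Groups did not overlap for 0.447%, 0.413% and 1.04% of genes in these comparisons, and for 0 of the 9 regulators.

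The direction of the fitted values is given for description. Between the treadmill and control groups 8 of the 9 regulators had a log2 fold change above 0 (all genes 49.7%), with a median of 0.0884 for the regulators and -0.002 for all genes. For catgut group 1 and catgut group 2 against the treadmill group it was 5 and 6 of 9 (all genes 47.8% and 50.6%), with medians of 0.0902 and 0.210 for the regulators and -0.011 and 0.0035 for all genes. For catgut group 2 against catgut group 1 it was 5 of 9 (51.6%), and for catgut groups 1 and 2 against the control group 7 of 9 each (47.9% and 49.3%). These comparisons share libraries, so their directions are not independent of each other.

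**Figure D3:**
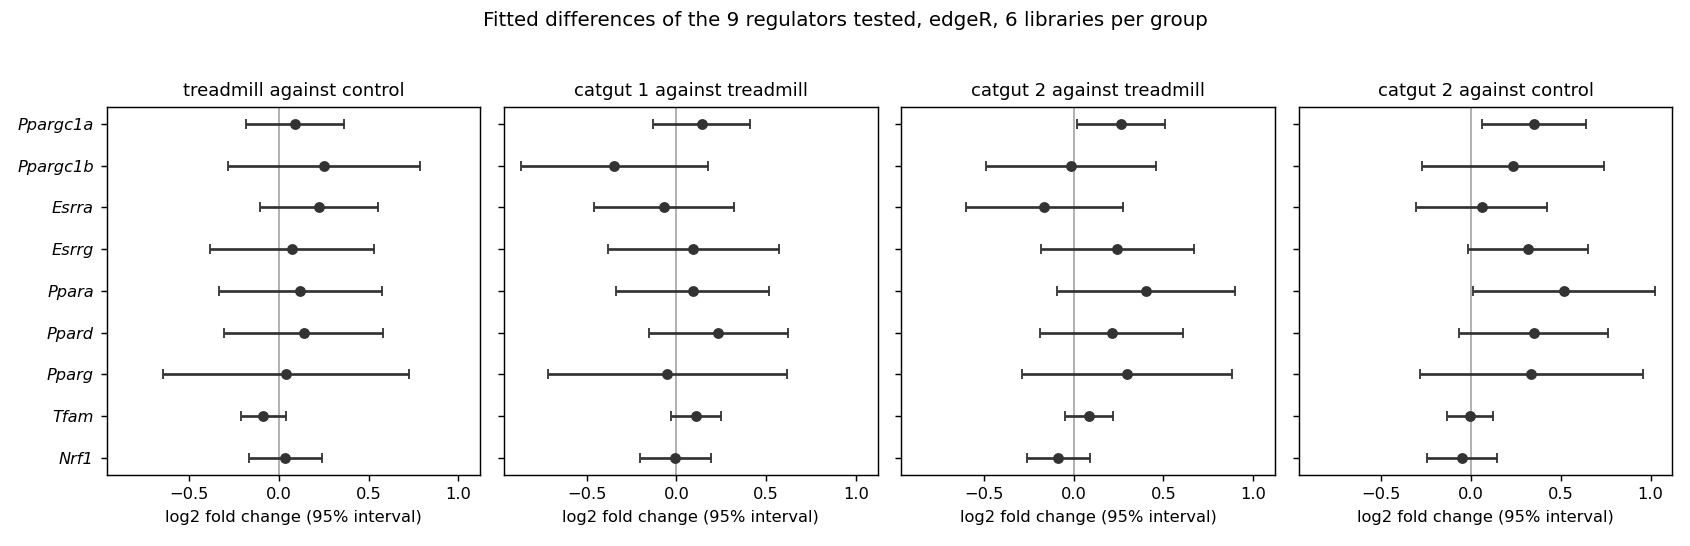
Fitted log2 fold change (horizontal axis, points) with its 95% interval (bars) for the 9 regulators tested, in 4 of the comparisons, with 6 libraries per group. The intervals of Ppargc1a lie above 0 for catgut group 2 against the treadmill group (0.02 to 0.51) and against the control group (0.06 to 0.64), and those of Tfam and Nrf1 are the narrowest.

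The regulators varied together to different degrees. Of the 36 pairs among the 9 regulators tested, 29 had a Pearson's r above 0 over the 24 libraries and 3 had one above 0.5. These were Ppargc1a with Ppard (r = 0.64, rho = 0.59), Ppargc1a with Ppara (r = 0.58, rho = 0.56) and Esrra with Ppara (r = 0.56, rho = 0.47). The lowest value was that of Pparg with Tfam (r = -0.44, rho = -0.46). All points share depth, dissection and fibre content, so these values describe the libraries and carry no test.

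The regulators differed in how closely they followed the fibre genes. The log2 levels of Ppargc1a, Ppargc1b, Esrra, Esrrg, Ppara and Ppard had Pearson's r of 0.58 to 0.64 with the slow fibre sum (rho 0.54 to 0.68), and r of 0.47 to 0.66 after group means were removed. Pparg, Tfam and Nrf1 had r of 0.17, 0.095 and 0.042 with it. With the fast fibre sum, r was -0.57 for Ppargc1a, -0.55 for Ppard, -0.53 for Pparg, -0.44 for Ppargc1b, -0.40 for Esrrg and for Ppara, -0.27 for Esrra, -0.25 for Nrf1 and -0.015 for Tfam. Pparg was thus lower where the fast fibre sum was higher, but was only weakly related to the slow fibre sum. Ppargc1a and Esrra also followed the sum of 6 blood genes, mostly globins (r = 0.63 each), a sum with a median of 380 FPKM in the control group and 577 to 667 FPKM in the other groups. Tfam was lower where endothelial markers were higher (r = -0.59), opposite to Pparg.

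**Figure D4:**
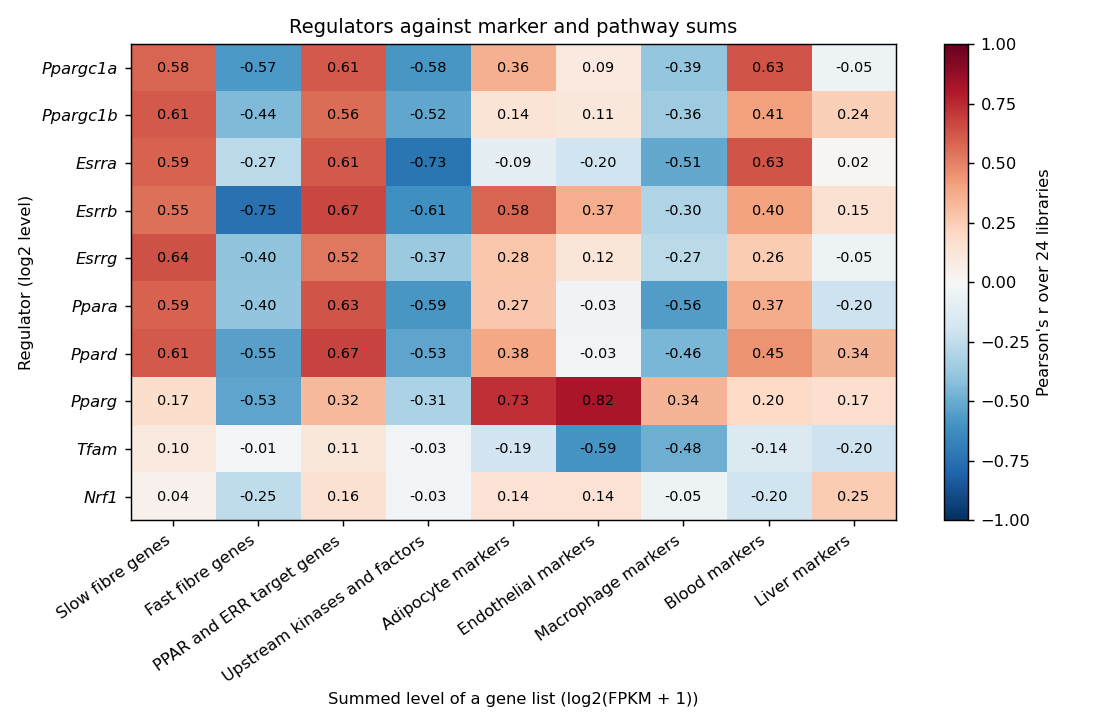
Pearson's r over the 24 libraries between the log2 level of each regulator (rows) and the log2 summed level of each gene list (columns), from -1 in blue to 1 in red. The slow fibre column is at 0.55 to 0.64 for 7 regulators and at 0.17 or less for Pparg, Tfam and Nrf1, and the highest value of all is that of Pparg with endothelial markers (0.82).

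The genes whose pattern was most like that of a regulator, by Pearson's r of depth-scaled log2 counts over the 24 libraries, were as follows. For Ppargc1a they were Synj2 (r = 0.83), Extl1 (0.83) and Vegfa (0.80), the last being the vascular growth factor. For Esrra they were Slc25a4 (0.93), which carries ADP and ATP across the inner mitochondrial membrane, and the complex I subunits Ndufb10 (0.93) and Ndufa8 (0.92). These were the highest values of any regulator, and they stayed at 0.94 to 0.96 after group means were removed. For Ppargc1b they were Efr3b (0.75), Lzts2 (0.75) and Lpcat3 (0.74), and for Esrrg Shd (0.73), Tspan3 (0.72) and Fzd9 (0.72). Ppara was most like Mtx2 (0.82), Rdh13 (0.82) and Oxnad1 (0.80), Ppard like Abhd1 (0.84), Mpped2 (0.81) and Acss1 (0.78), and Pparg like Rerg (0.84), Emcn (0.81) and Tle3 (0.80). Tfam was most like the proteasome subunits Psmd2 (0.81) and Psmc3 (0.81) and Trpc4ap (0.81). Nrf1 had the lowest values, with Vps52 (0.69), Bahcc1 (0.63) and Tbc1d22b (0.62).

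Among 14 tested partners of the regulators, 0 had an adjusted p under 0.05 in edgeR in the 3 comparisons of the study. At an unadjusted p under 0.05 there were 3, 4 and 4 partners (all genes 9.12%, 6.93% and 10.7%). In the first comparison 1 was higher and 2 lower, in the second all 4 were higher, and in the third 2 were higher and 2 lower. The partner with the smallest p was Nrip1, a corepressor of nuclear receptors that is known to oppose Ppargc1a. Its lowest, median and highest levels were 0.911, 2.47 and 3.13 FPKM in the control group and 0.876, 1.20 and 2.14 in the treadmill group. They were 1.75, 2.55 and 2.94 in catgut group 1 and 1.61, 2.64 and 4.35 in catgut group 2. The treadmill group was thus the low one, and 4 of 6 libraries of each catgut group were above all of its libraries. The log2 fold change was 0.85 in catgut group 1 (SE 0.17, edgeR adjusted p = 0.126) and 0.97 in catgut group 2 (SE 0.217, adjusted p = 0.102). Of 13 alternatives, only DESeq2 called it, with adjusted p-values of 0.000657 and 0.0023. DESeq2 called 139 and 309 of all genes in these comparisons, and edgeR 7 and 35. Under the other alternatives the adjusted p of Nrip1 reached up to 0.329 and 0.279. Against the control group the treadmill value was -0.78 (SE 0.254, edgeR adjusted p = 0.444). Next by p were Ncoa2, a nuclear receptor coactivator (0.39 in catgut group 2 against the treadmill group, edgeR adjusted p = 0.214), Rxra, the DNA-binding partner of the peroxisome proliferator-activated receptors (-0.38, adjusted p = 0.222), and Mybbp1a, a repressor that binds Ppargc1a (0.27 in catgut group 1, adjusted p = 0.485). Perm1, a muscle gene that is itself induced by Ppargc1a and Esrra, had 22.9 to 28.5 FPKM as group means and log2 fold changes of 0.30, -0.10 and 0.03 in the 3 comparisons (edgeR adjusted p of 0.795 or more).

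Of 29 tested target genes of these receptors, edgeR called 0 in treadmill against control and 0 in catgut 1 against treadmill. At an unadjusted p under 0.05 these comparisons had 0 and 4 targets, the 4 all lower (all genes, either direction, 9.12% and 6.93%). In the latter comparison DESeq2 gave adjusted p-values of 0.0485 for Ucp3 and 0.0334 for Lpin1, and no other of the 13 alternatives called them. In catgut group 2 against the treadmill group 2 targets fell and 0 rose (all genes called lower 0.129%, higher 0.108%). At an unadjusted p under 0.05, 2 targets were higher and 3 lower in that comparison (all genes, either direction, 10.7%). Ucp3, a mitochondrial carrier of muscle that is raised by fatty acids, had 89.0 to 231 FPKM in the treadmill group (median 114) and 29.5 to 43.8 FPKM in catgut group 2 (median 35.3), with no overlap. Its log2 fold change was -1.96 (SE 0.23, edgeR adjusted p = 0.00589). The control group spread from 16.5 to 286 FPKM around a median of 55.8, so that both levels lay inside its range. Lpin1, a phosphatidate phosphatase that also acts as a coactivator of Ppara, fell from 22.7 ± 3.65 to 12.6 ± 2.50 FPKM (SD, n = 6 each), with a log2 fold change of -0.88 (SE 0.153, edgeR adjusted p = 0.0421), and its adjusted p was 0.03 to 0.11 when 1 library was left out, above 0.05 in 9 of 12 such fits.

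Other targets had values that did not pass the test. Vegfa had 0.48 in catgut group 2 against the treadmill group (SE 0.159, edgeR adjusted p = 0.268) and Ucp2, a carrier related to Ucp3, had -0.86 in catgut group 1 (adjusted p = 0.485). Pdk4, the kinase that turns off pyruvate dehydrogenase, had group means of 441 ± 289, 427 ± 205, 316 ± 109 and 291 ± 43.3 FPKM (SD, n = 6 each), with an edgeR adjusted p of 0.513 for catgut group 2 against the treadmill group. Angptl4, a secreted inhibitor of lipoprotein lipase, had -1.05 and -1.08 in catgut groups 1 and 2 against the treadmill group (edgeR adjusted p = 0.779 and 0.435). Cpt1b, which admits fatty acids to mitochondria, had 90.1 to 106 FPKM as group means and an edgeR adjusted p of 0.848 or more. The median log2 fold change of the 29 targets was 0.17, 0.091 and 0.22 in the 3 comparisons, beside -0.002, -0.011 and 0.0035 for all genes tested. Of the 29, 23, 18 and 21 had values above 0 (all genes 49.7%, 47.8% and 50.6%). In catgut group 2 against the control group edgeR called 0 of the 29, and their median log2 fold change was 0.33. There 9 targets were higher and 2 lower at an unadjusted p under 0.05 (all genes, either direction, 16.4%).

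**Figure D5:**
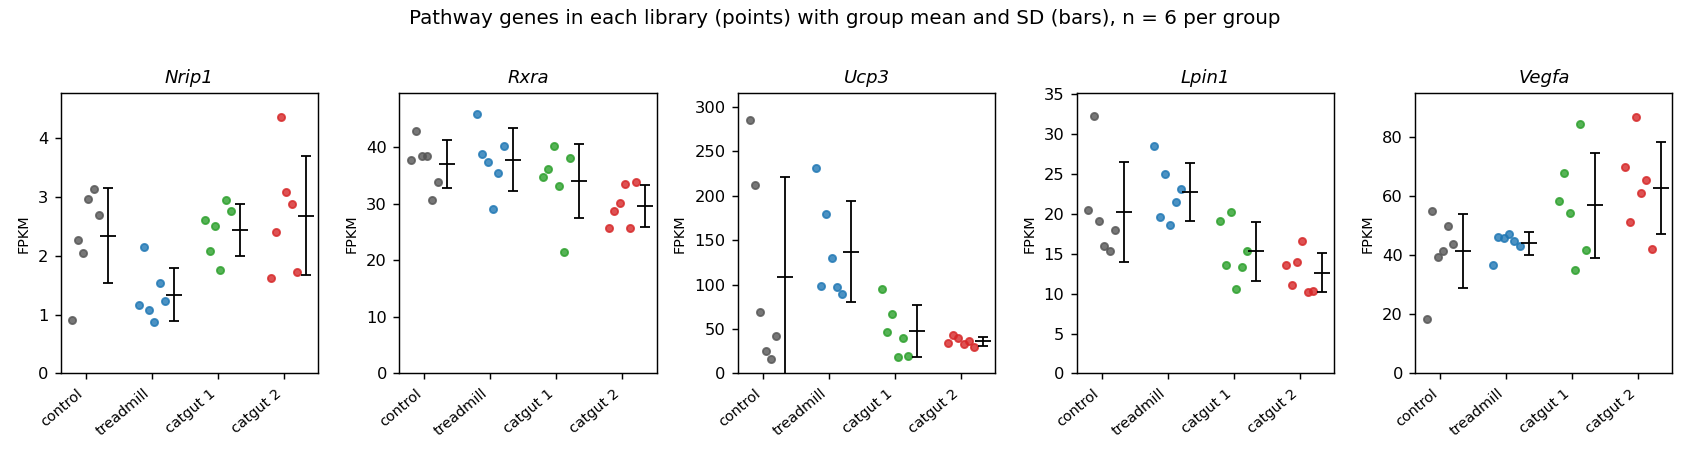
Level (FPKM, vertical axes from 0) of Nrip1, Rxra, Ucp3, Lpin1 and Vegfa in the 24 libraries, 6 points per group, with the group mean and SD as a bar, which ends at 0 for Ucp3 in the control group. Ucp3 and Lpin1 lie lower in catgut group 2 than in any treadmill library, and Nrip1 is lowest in the treadmill group, with a median of 1.20 FPKM.

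Of the 23 tested kinases and factors upstream of Ppargc1a (such as the AMP-activated kinase, calcineurin and CREB) and the 22 tested factors of mitochondrial biogenesis, edgeR called 0 in each of the 3 comparisons. At an unadjusted p under 0.05 there were 1, 4 and 2 upstream genes and 2, 2 and 1 biogenesis factors (all genes 9.12%, 6.93% and 10.7%). Examples are Prkab1, a subunit of the AMP-activated kinase (0.31 in catgut group 1 against the treadmill group, edgeR adjusted p = 0.519), Creb1 (0.64 in the same comparison, adjusted p = 0.669), and Polg, the polymerase of mitochondrial DNA (-0.28 in the treadmill group against the control group, adjusted p = 0.519). Tfb1m and Tfb2m, relatives of each other that serve mitochondrial ribosomes and transcription, had 0.35 in catgut group 1 against the treadmill group (adjusted p = 0.614 in edgeR) and -0.20 in the treadmill group against the control group (adjusted p = 0.505).

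Genes of acute exercise and of the clock passed the test in different comparisons. All 16 immediate-early genes were higher in the treadmill group than in the control group at an unadjusted p under 0.05 (all genes, either direction, 9.12%). Of these, 4 had an adjusted p under 0.05 in edgeR (all genes called higher 0.0406%), with Arc at a log2 fold change of 3.36 and Ccn1 at 1.86. In catgut groups 1 and 2 against the treadmill group edgeR called 0 of the 16, with 1 and 0 at an unadjusted p under 0.05 (all genes 6.93% and 10.7%). Of 18 clock genes, 0 were called in the treadmill group against the control group. There 6 were lower at an unadjusted p under 0.05 (all genes, either direction, 9.12%). Against the treadmill group 2 clock genes rose in catgut group 1 (all genes called higher 0.0338%). In catgut group 2, 2 rose and 2 fell (all genes called higher 0.108%, lower 0.129%). Per2, which represses clock transcription, had 2.10 ± 0.907 FPKM in the treadmill group and 9.80 ± 2.27 in catgut group 2 (SD, n = 6 each, log2 fold change 2.19, edgeR adjusted p = 0.00691), and Arntl, the activator, fell by 2.37 on the log2 scale (adjusted p = 0.00494). The control group spread widely in both, from 1.38 to 9.51 FPKM for Per2 (median 6.66) and from 1.11 to 11.4 FPKM for Arntl (median 1.95). The labels give no hour of sampling. What part time of day or acute exercise had in the levels of Nrip1, Ucp3 or the regulators was not tested.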

How the data were processed

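Quadriceps RNA of 24 rats was sequenced, 1 library per rat, and grouped by the labels into 4 groups of 6. Per the submitters' processing notes HISAT2 2.0 and StringTie 1.3.0 were used, and the genome build is not given in the sources used here. The deposited FPKM values were computed by the authors per gene, and the deposited estimated counts are whole numbers, of which 4 and 8 are the commonest above 0, so that 1 fragment may stand for several counts. No column of per-sample values was left unmapped. Of all values 23.3% were 0.

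Genes with a mean of at least 0.1 FPKM over the 24 libraries were kept, 14772 of 21067. Each comparison was fitted on its own 12 libraries with TMM scaling and the quasi-likelihood F test of edgeR 4.0.16 in R 4.3.3, with Benjamini-Hochberg adjustment over all genes tested and 0.05 as the threshold. Single genes were also tested by an exact two-sided permutation test of log2(FPKM + 1) over 924 arrangements. DESeq2 1.42.0, limma 3.58.1, other filters and scalings, covariates, a replicate block and leaving out each library were the alternatives. Correlations use depth-scaled log2 counts with a prior count of 2 (log2(FPKM + 1) for Esrrb) and, for lists, the log2 summed FPKM plus 1. Intervals are 95%. The code was tested on simulated counts. The regulators, gene lists and tests were chosen with earlier results of these data known. Other genes were named as up to 4 of each list with the smallest p over the 3 comparisons of the study, the 3 most like each regulator, and always Pdk4, Ucp3, Angptl4, Cpt1b and Perm1. Figures were drawn with matplotlib 3.10.9.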

Additional observations from a re-analysis of the deposited data

Results flagged for a closer look

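Of 40 groups of 6 libraries, 4 held a library whose gap to its nearest neighbour was beyond Dixon's critical share of the group's range, where chance alone flags about 1 in 20. Esrra was lowest in treadmill replicate 2 at 38.5 FPKM, beside 53.4 in the next library and a median of 55.0. This library had the lowest slow fibre sum of its group (29.9 FPKM) and the highest macrophage sum of all 24 libraries (220 FPKM). Ppard was highest in control replicate 2 at 4.83 FPKM (next 3.15) and in treadmill replicate 3 at 5.13 FPKM (next 3.28), the libraries with the highest liver and slow fibre sums of their groups. Pparg was highest in control replicate 4 at 3.57 FPKM (next 1.82), which had the highest adipocyte and endothelial sums of its group. The part of fibre type, liver transcripts or other cell types in these values was not tested.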

How the results depend on the processing

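No regulator was called under any alternative run. Of 693 fitted values of the regulators under the alternatives other than leaving out single libraries, 678 kept their sign and their side of the threshold and 15 changed sign, and the lowest adjusted p for a pair of groups was 0.127 in edgeR (Ppard, catgut 2 against control, without control replicate 2). With 1 library left out, 599 of 648 kept both and 49 changed sign. The log2 fold changes that changed sign, regulators and named pathway genes alike, were these. With limma on log2(FPKM + 1) they were treadmill against control Pdk4 0.13 and Angptl4 0.069, catgut 1 against treadmill Nrf1 0.016 and Perm1 0.026, catgut 2 against treadmill Ppargc1b 0.016. With limma on log2(FPKM + 0.1) they were treadmill against control Pdk4 0.13 and Angptl4 0.12, catgut 1 against treadmill Nrf1 0.018 and Perm1 0.030, catgut 2 against treadmill Ppargc1b 0.026. With the Y-linked level as a covariate they were treadmill against control Pdk4 0.037 and Angptl4 0.031, catgut 2 against treadmill Ppargc1b 0.036, catgut 1 against control Pparg 0.029. With the slow fibre level as a covariate, chosen after seeing the data they were treadmill against control Esrrg -0.021 and Cpt1b -0.079, catgut 2 against treadmill Cpt1b -0.071 and Perm1 -0.39, catgut 2 against control Ppargc1b -0.11 and Esrra -0.22. With the 2 libraries highest in liver markers left out, also chosen after seeing the data they were treadmill against control Pdk4 0.042, catgut 1 against treadmill Nrf1 0.0090, catgut 2 against treadmill Ppargc1b 0.034, catgut 1 against control Ppargc1b 0.054 and Pparg 0.034. With 1 library left out, the lowest and highest values of the results that changed sign were as follows. For treadmill against control they were Esrrg -0.011 to 0.20, Ppard -0.024 to 0.32, Pparg -0.093 to 0.31, Nrf1 -0.013 to 0.073, Pdk4 -0.26 to 0.24, Angptl4 -0.63 to 0.43, Vegfa -0.020 to 0.24. For catgut 1 against treadmill they were Esrra -0.18 to 0.032, Esrrg -0.029 to 0.18, Ppara -0.043 to 0.20, Pparg -0.29 to 0.083, Nrf1 -0.042 to 0.037, Cpt1b -0.0035 to 0.19, Perm1 -0.28 to 0.13. For catgut 2 against treadmill they were Ppargc1b -0.14 to 0.084, Perm1 -0.15 to 0.26. For catgut 2 against catgut 1 they were Esrra -0.23 to 0.0014, Ppard -0.11 to 0.081. For catgut 1 against control they were Ppargc1b -0.18 to 0.054, Pparg -0.25 to 0.26, Nrf1 -0.018 to 0.077. For catgut 2 against control they were Esrra -0.071 to 0.16, Tfam -0.034 to 0.013. The cause was not tested.

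The labels number the replicates alike in every group, but libraries with the same number did not deviate together (correlation of deviations -0.226 to 0.232, at most 1 of 6 above 0.1 in a comparison), so no pairing of rats by number was seen. The numbers did go with the Y-linked sum, which was above 10 FPKM in replicates 4, 5 and 6 of the control, treadmill and catgut 1 groups. In catgut group 2 it was above 10 FPKM in replicates 1 and 5, so the replicate block does not match this level across all groups. With the replicate block, Ppargc1a in catgut 2 against treadmill was 0.26 (unadjusted p = 0.0561, adjusted p = 0.574 in edgeR), and the values that changed sign were treadmill against control Pdk4 0.17 and Angptl4 0.19, catgut 2 against treadmill Ppargc1b 0.00097, catgut 1 against control Pparg 0.011. Under the block the adjusted p in catgut 2 against treadmill was 0.0683 for Ucp3, 0.0907 for Lpin1 and 0.0683 for Per2, and it was 0.136 for Ucp3 in 1 fit over all 4 groups. Without treadmill replicate 3 it was 0.0698 for Lpin1.

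Counts over all genes moved more. In the order treadmill against control, catgut 1 against treadmill, catgut 2 against treadmill, catgut 2 against catgut 1, catgut 1 against control, catgut 2 against control and 4 groups, the quasi-likelihood test called 8, 7, 35, 1, 3, 75 and 56 genes and DESeq2 112, 139, 309, 8, 162, 695 and 483. With the block the first 6 were 7, 2, 3, 0, 1 and 0. Depth limits Esrrb most, at 12 counts or fewer in 18 libraries, and the intervals of the other regulators reach 0.12 to 0.70 log2 units either way.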

Other observations

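Among markers of other cell types, those of liver had the largest fitted values. Of 13 tested liver genes edgeR called 0 in the 3 comparisons of the study. In catgut 1 against treadmill 12 and in catgut 2 against treadmill 11 were lower at an unadjusted p under 0.05 (all genes, either direction, 6.93% and 10.7%). The median log2 fold changes over the 13 were -7.08 and -7.30. Their summed level was 436 FPKM in treadmill replicate 3 and 16.4 to 58.7 FPKM in the other treadmill libraries. Of 5 tested blood genes, 3 had an unadjusted p under 0.05 in treadmill against control (all genes 9.12%), all with values above 0, led by the globin Hba-a2 (log2 fold change 1.02, SE 0.341, edgeR adjusted p = 0.456). Of 7 endothelial genes, 1 did, Kdr, a receptor of the growth factor Vegfa (0.66, SE 0.175, adjusted p = 0.354 in edgeR). Of 12 muscle genes, 5 had an unadjusted p under 0.05 in catgut 2 against treadmill (all genes 10.7%), all with values below 0. Among them were Tnnt3, a troponin of fast fibres (-0.35, edgeR adjusted p = 0.286), Ckm (-0.35, adjusted p = 0.338) and Actn3, an actinin of fast fibres (-0.49, adjusted p = 0.394). The 10 slow fibre genes all had values above 0 in each of the 3 comparisons of the study, and 0 of them had an unadjusted or adjusted p under 0.05 in edgeR there. In catgut 2 against control the median log2 fold change of the 10 was 1.85. Of these, 4 were higher at an unadjusted p under 0.05 in edgeR, and 4 of 7 tested fast fibre genes were lower (all genes, either direction, 16.4%). At an adjusted p under 0.05 edgeR called 0 of either list in that comparison. Of 13 tested adipocyte genes, edgeR called 0, and Dgat2, an enzyme of triglyceride synthesis, had the smallest p (1.0503 in catgut 2 against treadmill, adjusted p = 0.304 in edgeR).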
